A study of Rattus norvegicus with 36 samples.

Results

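The day genes are 104 of the 29516 genes in the tables of a rat pineal RNA-seq series, chosen by the measured read-pair counts of Control and Sham glands, which were lower at night than in daytime. For each gene, the count was scaled to the total of its file (CPM) and each group was given the median of its 3 libraries. A gene was kept if log2 of (night CPM + 0.5) over (day CPM + 0.5) was -1.5 or lower in both Control and Sham glands and if its Control day CPM was at least 1. Of the 13626 genes with that day level, 106 met the rule, and 2 identifiers named in the rule were dropped. The night and day values of Control and Sham glands therefore chose the genes and are given as a description without a test.

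The pineal gland makes melatonin at night. Its nightly signal comes from sympathetic neurons of the superior cervical ganglia, which release norepinephrine onto adrenergic receptors of the pinealocyte, and cyclic AMP is the main second messenger that follows. Many pineal transcripts rise with that signal, and the transcripts described here are those that stood at their lower level when it is normally present. The tables name genes by Ensembl identifier only and no table pairing these identifiers with symbols was used here, so functions of single members are not given. Sympathetic, glial and other cell type markers were for the same reason not analysed, and the labelled tissue was not checked against them.

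All animals were Sprague-Dawley rats. The in vivo experiment compared unoperated rats (Control), rats with a sham operation (Sham), rats in which the nerve input to the ganglia was cut (DCN, decentralized) and rats in which both ganglia were removed (SCGX, ganglionectomized). Operations were done on postnatal day 5 and glands were taken at 40 days of age at mid-day (ZT7, where ZT counts hours from lights on) or midnight (ZT19). Both sexes were used, with 3 libraries of pooled glands for each group and time. The in vitro experiment used glands of female rats, which were older than the in vivo rats. Glands were cultured for 48 h. They were then kept for 6 h without treatment (untreated) or under norepinephrine at 1 µM (NE) or dibutyryl cyclic AMP at 500 µM (DBcAMP). DBcAMP is a form of cyclic AMP that enters cells. Each culture group had 3 libraries. A pineal day library, a pineal night library and a library of mixed RNA from 15 other tissues at ZT7 completed the series, with no replicates. Library totals ran from 12556861 to 18524435 read-pairs in the replicated groups and from 28836161 to 38574186 in these 3 libraries. The SD over genes of the log2 difference from the other libraries of the group was largest in Sham night replicate 3 (0.59), followed by Sham night replicate 1 (0.46) and DCN day replicate 1 (0.42). Libraries of a group are separate pools, and p-values measure the spread between pools.

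Day genes covered a wide range of levels. Control day CPM ran from 1.49 to 1488, with a median of 31.0, against a median of 25.03 over the 13626 genes of at least 1 CPM. At night the Control median of the members was 5.30 CPM. In Sham glands the medians were 25.4 CPM at day and 4.76 CPM at night. The log2 night to day value had a median of -2.05 in Control and -1.96 in Sham, and 38 members were at -2 or lower in both. The weaker of the 2 values reached -3 or lower in 6 members. The members nearest the threshold stood at -1.51 and -1.51, and the nearest genes outside it at -1.49 and -1.49. Over all 13626 genes the median was -0.22 in Control and -0.16 in Sham. With library sizes scaled by TMM, 80 members met the rule, all of them among the 104.

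Levels per transcript length are given as RPKM. The member with the highest Control day level per length had a median of 1219 RPKM. It read 1168, 1671 and 1488 CPM in Control day libraries and 424, 318 and 265 CPM in Control night libraries. In Sham glands it read 1448, 1262 and 1334 CPM at day and 228, 470.3 and 239.7 CPM at night. The groups did not overlap in either case. The median member had 17.1 RPKM and the lowest 0.50 RPKM. Night libraries were all below day libraries in 103 members in Control and in 100 members in Sham, where the same held for 41.3% and 32.4% of all 13626 genes, but these are the values that chose the members.

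**Figure D1:**
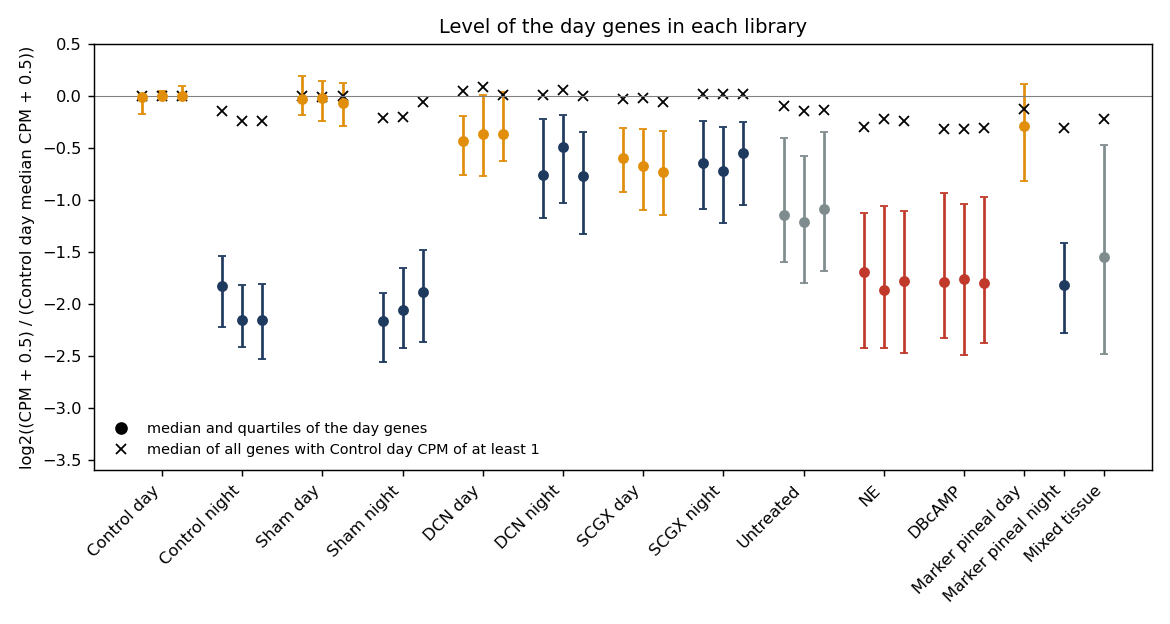
Level of the 104 day genes in each of the 36 libraries, as log2 of CPM + 0.5 over the Control day median + 0.5; points are medians over the members, bars are quartiles and crosses are the median of the 13626 genes with Control day CPM of at least 1. Control and Sham night libraries lie between -2.16 and -1.83, and the operated groups between -0.77 and -0.36 at both times. Untreated cultures lie between -1.22 and -1.08, and cultures with NE or DBcAMP between -1.87 and -1.70.

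In separate night and day pineal libraries, which the rule did not use, the night value was lower in 103 of 104 members and in 9231 of the 13626 genes. The night library was at least 2-fold below the day library, as a ratio of CPM + 0.5, in 83 of 104 members, where 5.50% of the 13626 genes were. No member was at least 2-fold higher at night. The median log2 night to day value was -1.52 over members and -0.18 over the 13626 genes. Of the 21 members that did not reach 2-fold, 1 was higher at night. That member had 39 read-pairs at day and 81 at night, or 1.35 and 2.20 CPM. With 1 library at each time these ratios have no replicate check.

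After either operation most day genes lay between their Control day and Control night levels at both times, and nearer to day. The median log2 difference from Control day over the 104 members was -0.36 in DCN day, -0.63 in DCN night, -0.65 in SCGX day and -0.64 in SCGX night. The same value was -2.05 in Control night and -2.05 in Sham night, and -0.05 in Sham day. On the log2 scale 10 members lay nearer to Control night than to Control day in DCN day, 29 in DCN night, 20 in SCGX day and 22 in SCGX night. Below Control day were 80 of 104 members in DCN day, 89 in DCN night, 93 in SCGX day and 92 in SCGX night. At least 2-fold below it were 11, 37, 31 and 31 members in the same order, and 2 in Sham day. Over the 13626 genes the medians of single operated libraries ran from -0.06 to 0.09. The rule used the Control and Sham libraries and chose members that were high in both at day. Sham day is therefore not an independent yardstick, and levels below Control day can in part reflect the choice. These differences have no test. In these bulk libraries fewer cells of a type and less RNA per cell cannot be told apart.

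Values of 2 of the members with the largest fall in intact glands are given next. One of the 2 members with the largest weaker decrease read 90.0, 87.1 and 119.5 CPM in Control day and 6.49, 1.83 and 0.818 CPM in Control night libraries. In SCGX glands it read 24.2, 12.6 and 16.6 CPM at day and 22.5, 36.8 and 29.0 CPM at night. Every operated library was thus above every Control night library and below every Control day library, and its SCGX day level lay farther below Control day than that of any other member (log2 difference of -2.41). The third member by this order read 125.2, 138.9 and 132.5 CPM in Control day and 17.4, 12.2 and 10.7 CPM in Control night libraries. In DCN glands it read 67.7, 74.5 and 84.6 CPM at day and 100.9, 113.0 and 69.1 CPM at night, and the ranges overlapped. In SCGX glands it read 60.2, 61.1 and 58.0 CPM at day and 82.2, 62.5 and 87.3 CPM at night. For this member too, every operated library was above every Control night library and below every Control day library.

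**Figure D2:**
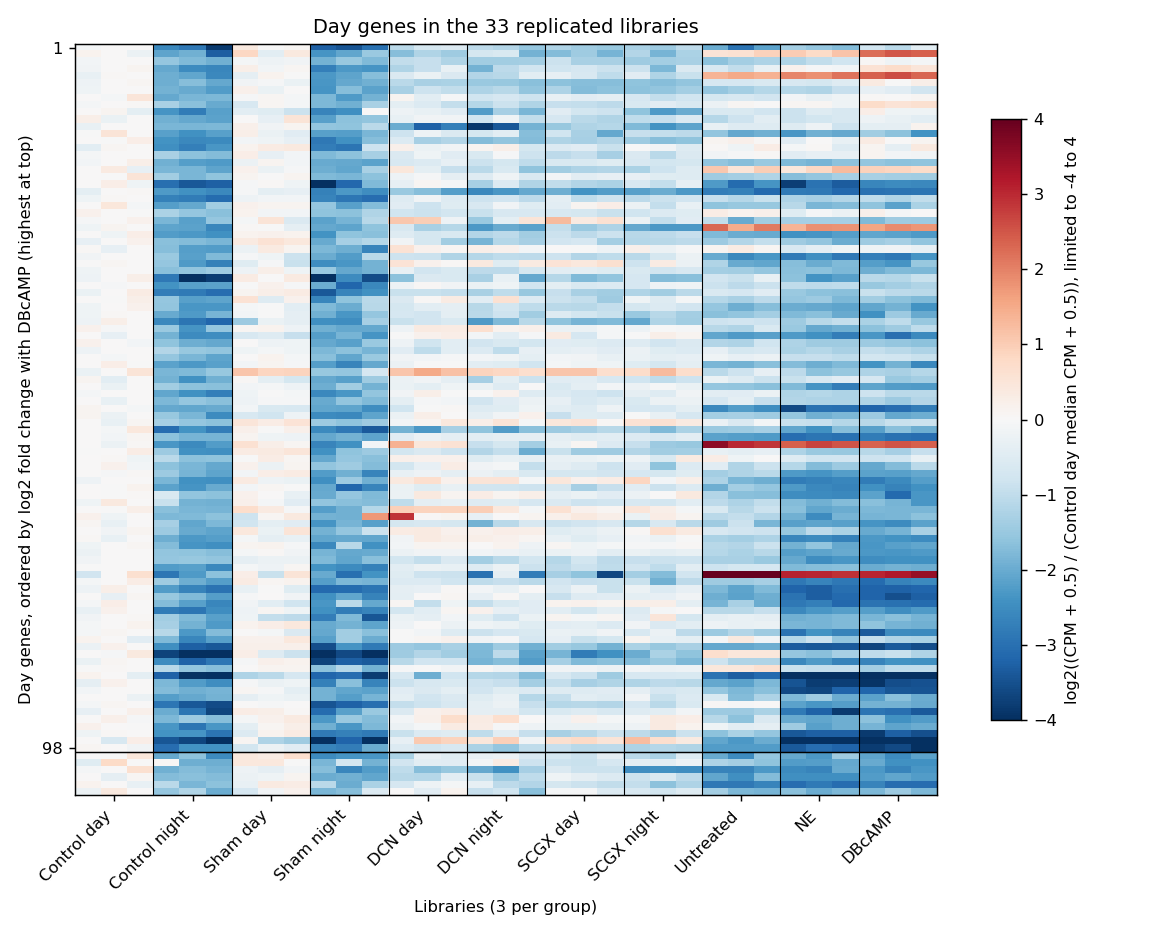
Each row is a day gene and each column 1 of 33 libraries, with log2 of CPM + 0.5 over the Control day median + 0.5 as colour; 98 rows are ordered by their fold change with DBcAMP and the 6 rows under the line were too low in culture to be tested. Control and Sham night columns are blue in nearly all rows, operated columns are near white, and the rows at the bottom of the ordered block turn darkest with NE and DBcAMP.

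Night and day were then compared within the operated groups, which share no library with the rule. In DCN glands none of the 104 members passed edgeR's quasi-likelihood test at an adjusted p under 0.05, and no gene of 15928 did (0% called in either direction). At an unadjusted p under 0.05 there were 26 members of 104, against 8.98% of all genes tested. DESeq2 called 6 members, all lower at night. Its share over all genes is not given here, so that count is not read as a result about the members. The median log2 fold change was -0.27 over members and -0.01 over all genes. Below 0 were 85 of 104 members, against 51.7% of all genes tested. The 3 night libraries were all below the 3 day libraries in 28 members and above them in none, where 9.27% and 5.88% of all genes tested did so. In these libraries the members thus lay lower at night on balance, while no single member passed the edgeR test.

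In SCGX glands 8 members passed, 6 lower and 2 higher at night. The share called over all 15551 genes was 0.83% lower and 1.02% higher. At an adjusted p under 0.001 no member was called, against 0.0129% of genes higher and 0% lower. Members were split evenly, with 52 of 104 below 0 and a median log2 fold change of 0.00, as over all genes. At an unadjusted p under 0.05 there were 33 members (31.7%), against 18.1% of all genes tested. The 5th to 95th percentile of the log2 fold change ran from -1.02 to 0.50 over members. Over all genes it ran from -0.46 to 0.59. Night libraries lay wholly below day libraries in 16 members and wholly above them in 14, where 7.81% and 15.2% of all genes did. The count of calls fell to 2 without SCGX day replicate 1, without SCGX day replicate 3 or without SCGX night replicate 3. The counts without single libraries have no share over all genes beside them and show only how far the count moved.

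Among the 6 that fell was ENSRNOG00000012876, printed here because it was lower at night without the ganglia (chosen after its values were seen). It read 55.4, 45.2 and 42.2 CPM in SCGX day and 24.5, 15.4 and 18.7 CPM in SCGX night libraries, and the groups did not overlap. Its log2 fold change was -1.33 (SE 0.16, adjusted p = 0.00748, edgeR). In DCN glands it read 65.4, 61.8 and 55.2 CPM at day and 15.8, 29.7 and 21.2 CPM at night, with a log2 fold change of -1.42 (SE 0.20, adjusted p = 0.240, edgeR). The night to day change did not differ detectably between the 2 operated groups, at 0.10 (SE 0.29, adjusted p = 0.931, edgeR). In Sham night libraries it read 11.7, 13.4 and 76.1 CPM, so replicate 3 stood at the day level. Its call in SCGX glands was kept without each SCGX library in turn, and was lost when all 24 in vivo libraries entered 1 model.

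The largest of the 6 decreases was in a low member that read 2.22, 1.71 and 1.72 CPM at day and 0.231, 0.254 and 0.223 CPM at night in SCGX libraries, a log2 fold change of -2.99 (SE 0.33, adjusted p = 0.00519, edgeR). Its night values rest on few read-pairs. The larger of the 2 increases was in a member that read 84.7, 78.8 and 57.0 CPM at day and 137.5, 108.4 and 147.4 CPM at night in SCGX glands, and its log2 fold change was 0.79 (SE 0.14, adjusted p = 0.0344, edgeR). No member was called higher without SCGX day replicate 1, 2 or 3 or SCGX night replicate 3, nor with all 24 in vivo libraries in 1 model. The same member read 154.4, 151.7 and 182.6 CPM in Control day and 52.1, 34.1 and 35.5 CPM in Control night libraries.

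The 2 operations were also compared with each other. At mid-day 3 members were lower in SCGX than in DCN and none higher, where 0.17% of 15902 genes were lower and 0.591% higher. DESeq2 called 17, of which 15 were lower and 2 higher. The DESeq2 counts in this paragraph, and the counts without single libraries, have no share over all genes beside them. They are not read as results about the members. The median log2 difference was -0.23 over members and -0.02 over all genes. Below 0 were 79 of 104 members, against 54.3% of all genes tested. At an unadjusted p under 0.05 there were 40 members (38.5%), against 19.7% of all genes tested. SCGX libraries lay wholly below DCN libraries in 38 members and wholly above them in 5, where 20.5% and 7.58% of all genes did. The number called was 14 without DCN day replicate 1, was 1 without DCN day replicate 3 and 0 without any 1 of the other 4 libraries. The largest of the 3 read 9.25, 12.5 and 11.1 CPM in DCN day and 5.65, 4.85 and 4.59 CPM in SCGX day libraries, a log2 difference of -1.04 (SE 0.16, adjusted p = 0.0443, edgeR). At midnight no member and no gene of 15579 was called by edgeR (0%), with 7 members (6.73%) at an unadjusted p under 0.05 against 3.80% of all genes, and 0 called by DESeq2. The median difference at midnight was 0.01, and SCGX libraries lay wholly below DCN libraries in 3 members and wholly above them in 6, where 5.11% and 4.08% of all genes did. The interaction, the SCGX change from day to night minus the DCN change, was called by edgeR in 0 members and in 0% of 15779 genes, with 15 members (14.4%) at an unadjusted p under 0.05 against 10.6% of all genes, and 2 called by DESeq2, both higher. Its median was 0.19 over members and 0.01 over all genes.

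**Figure D3:**
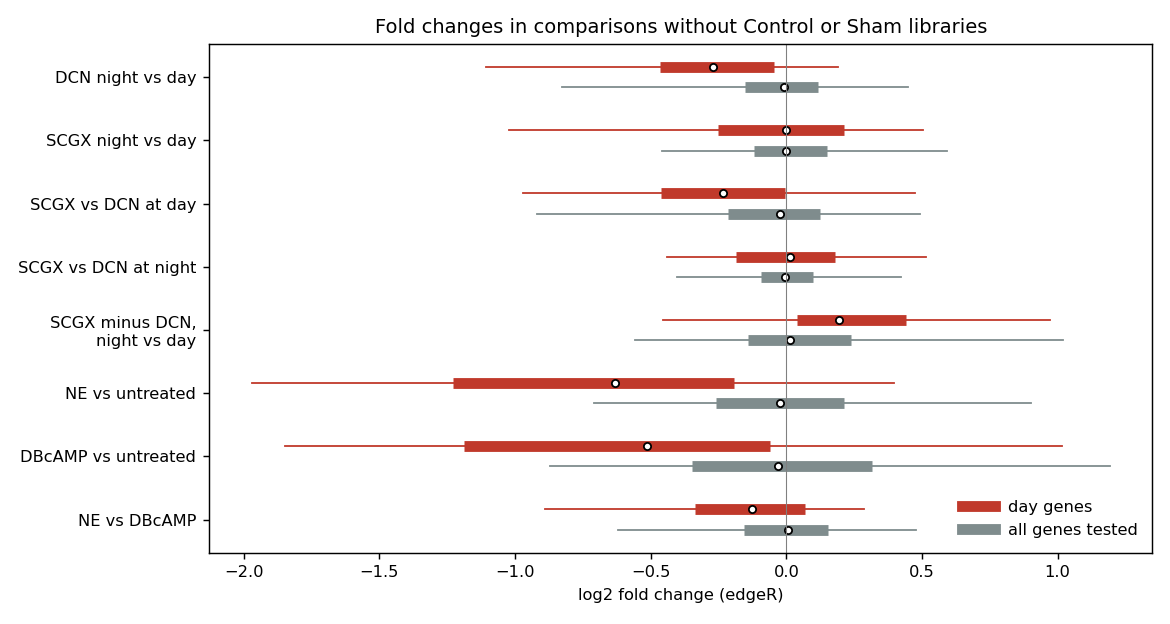
Log2 fold changes from edgeR in the 8 comparisons that use no Control or Sham library, for the day genes and for all genes tested; dots are medians, thick bars quartiles and thin lines the 5th to 95th percentile. Day genes have medians of -0.63 with NE and -0.51 with DBcAMP, where all genes have -0.03 and -0.03.

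In culture more day genes fell than rose with either treatment. With NE 56 of the 98 members tested were lower and 6 higher than in untreated glands, and 36 were not called. The share called over all 15219 genes was 16.1% lower and 14.2% higher. With DBcAMP 54 of 98 were lower, 11 higher and 33 not called, where 22.5% of 15196 genes were lower and 19.4% higher. The number lower with DBcAMP was 46 with DESeq2 and 46 to 50 without any 1 library. These counts have no share over all genes beside them and show only how far the number moved. At an adjusted p under 0.001 there were 36 lower and 2 higher with NE, where 4.65% and 6.69% of all genes were, and 31 lower and 10 higher with DBcAMP, where 7.08% and 9.62% were. NE libraries lay wholly below untreated libraries in 67 of all 104 members and above them in 5, where 32.8% and 13.7% of the genes tested did. For DBcAMP these numbers were 62 and 11 of 104 members, where 39.7% and 16.6% of the genes tested did. The 104 include the 6 members not tested in culture, while the shares are over tested genes only. The median log2 fold change over members was -0.63 with NE and -0.51 with DBcAMP, and 29 members were called lower by at least 2-fold in each. Over all genes tested the 5th percentile was -0.71 with NE and -0.87 with DBcAMP, short of a 2-fold fall. Both comparisons share the 3 untreated libraries, so their values are given side by side. Scaling by library size alone moved the median of all genes from -0.03 to -0.17 with DBcAMP and from -0.03 to -0.12 with NE, and calls over all genes then split 2142 higher and 5169 lower with DBcAMP and 1593 higher and 3688 lower with NE. The other 6 members were too low in culture to be tested, with untreated medians of at most 0.541 CPM.

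The largest fall with NE was in ENSRNOG00000042246. It read 9.58, 8.19 and 10.3 CPM in untreated, 1.12, 1.38 and 1.07 CPM in NE and 1.51, 1.42 and 1.59 CPM in DBcAMP libraries, so that the treated and untreated groups lay far apart. The log2 fold change was -2.88 with NE (SE 0.21, adjusted p = 2.82e-08, edgeR) and -2.49 with DBcAMP (SE 0.19, adjusted p = 5.82e-07, edgeR). In vivo it read 42.3, 27.0 and 50.4 CPM in Control day and 3.50, 2.86 and 1.20 CPM in Control night libraries. Sham day libraries read 45.1, 17.6 and 15.3 CPM, so the day level of intact glands varied. Sham night libraries read 0.877, 4.16 and 1.63 CPM. In the operated glands it read 33.5, 88.3 and 78.4 CPM in DCN day and 67.0, 73.8 and 61.0 CPM in SCGX day libraries. At night it read 58.5, 82.2 and 38.3 CPM in DCN night and 101.0, 67.4 and 54.7 CPM in SCGX night libraries, and night and day ranges overlapped. Its night to day log2 fold change was -0.13 in DCN (SE 0.39, adjusted p = 0.948, edgeR) and 0.10 in SCGX (SE 0.19, adjusted p = 0.824, edgeR). The separate pineal libraries gave 108.5 CPM at day (95% exact Poisson interval 104.8 to 112.4, counting error only) and 3.59 CPM at night (3.01 to 4.26).

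A smaller set of members rose. The 11 members that rose with DBcAMP were 11.2% of the 98, below the 19.4% of all genes called higher, and had log2 fold changes from 0.61 to 1.96, although each was lower at night in intact glands. Under NE the same 11 ran from 0.08 to 1.02, and 6 of them were called higher (6.12% of 98, against 14.2% of all genes). ENSRNOG00000010513 read 9.23, 9.81 and 12.3 CPM untreated, 13.0, 10.8 and 14.4 CPM with NE and 31.3, 37.0 and 34.5 CPM with DBcAMP. Its log2 fold change was 1.84 with DBcAMP (SE 0.13, adjusted p = 2.01e-07, edgeR) and 0.38 with NE (SE 0.15, adjusted p = 0.0770, edgeR). In vivo it read 6.95, 6.21 and 5.26 CPM in Control day and 1.06, 1.28 and 0.189 CPM in Control night libraries. All 3 DBcAMP libraries stood above every in vivo library.

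ENSRNOG00000008934 had the second highest level per length of the 11, at 222.7 RPKM in Control day glands. It read 289.0, 346.1 and 380.4 CPM untreated, 391.8, 454.0 and 517.4 CPM with NE and 917.1, 801.7 and 856.8 CPM with DBcAMP. Untreated and NE libraries did not overlap, and neither overlapped DBcAMP libraries. The log2 fold change was 0.51 with NE (SE 0.11, adjusted p = 0.00174, edgeR) and 1.48 with DBcAMP (SE 0.10, adjusted p = 1.81e-07, edgeR). In Control glands it read 827.4, 895.4 and 905.4 CPM at day and 306.2, 263.8 and 235.0 CPM at night. In DCN glands it read 451.6, 472.2 and 389.8 CPM at day and 340.1, 344.0 and 351.6 CPM at night, below every Control day library. ENSRNOG00000012876 also rose with DBcAMP, from 49.8, 49.1 and 44.2 CPM untreated to 91.9, 66.7 and 66.7 CPM, a log2 fold change of 0.79 (SE 0.11, adjusted p = 0.000119, edgeR). With NE it read 41.2, 52.5 and 47.98 CPM, a log2 fold change of 0.08 (SE 0.09, adjusted p = 0.544, edgeR).

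**Figure D4:**
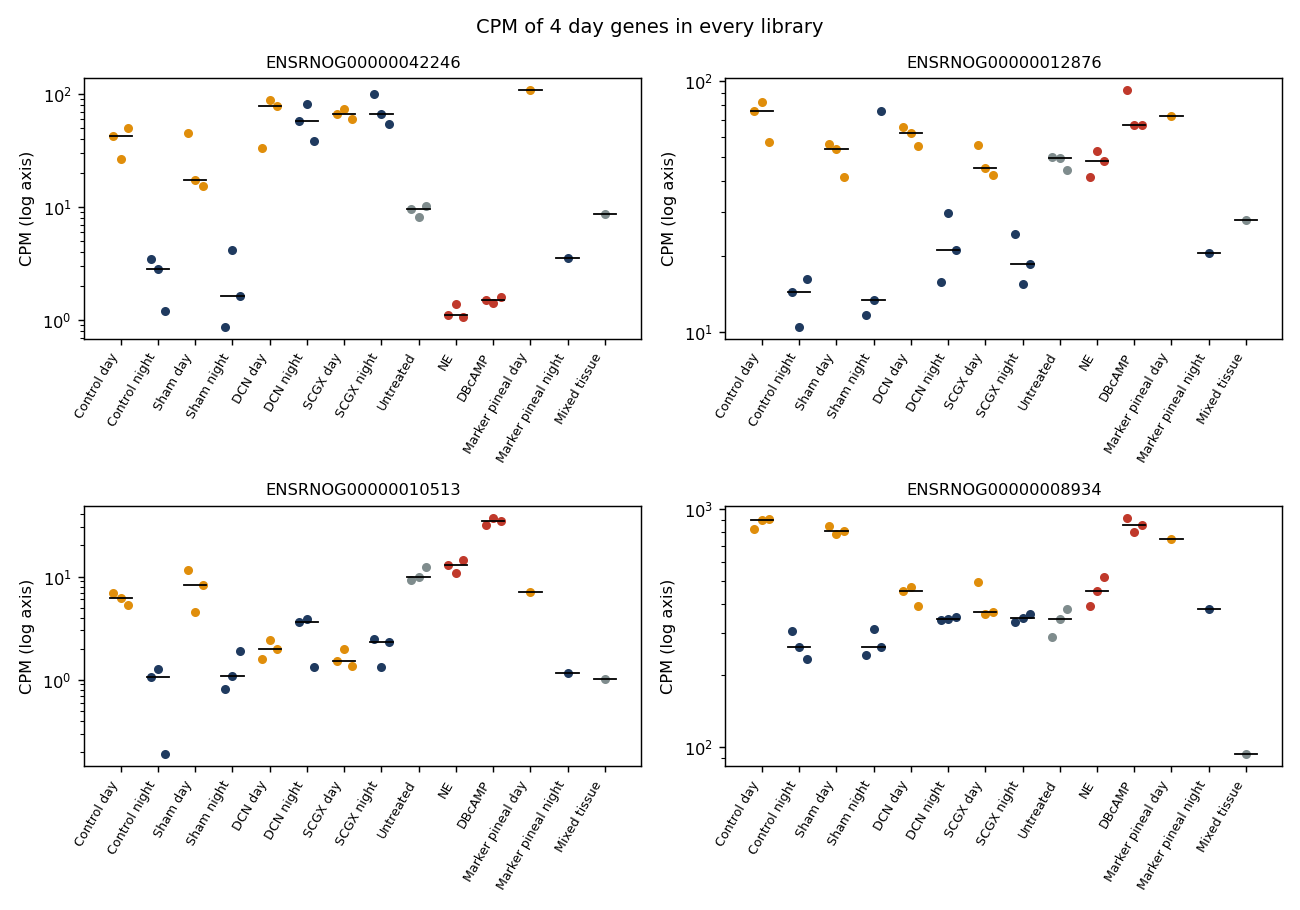
CPM of the 4 identified day genes in every library on a log axis; each dot is a library and each line the group median. ENSRNOG00000042246 has its lowest group medians with NE and DBcAMP, ENSRNOG00000012876 is low at night in all 4 surgical groups except 1 Sham library, and ENSRNOG00000010513 and ENSRNOG00000008934 are, within culture, highest with DBcAMP.

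The 2 treatments differed directly in 15 of 96 members tested, all lower with NE than with DBcAMP. The share called over all 15029 genes was 4.46% lower and 1.61% higher. At an adjusted p under 0.001 there were 4 lower and 0 higher, where 0.892% and 0.133% of all genes were. The largest of these differences was that of ENSRNOG00000010513, at -1.47 (SE 0.12, adjusted p = 2.11e-05, edgeR). A member without an identifier here was next at -1.08, and ENSRNOG00000008934 came after it at -0.97 (SE 0.09, adjusted p = 4.92e-05, edgeR) and ENSRNOG00000012876 was at -0.72 (SE 0.12, adjusted p = 0.00306, edgeR). For ENSRNOG00000042246 the difference was -0.39 (SE 0.29, adjusted p = 0.498, edgeR). The median difference over members was -0.13, against 0.01 over all genes. Of the 15 members, 10 were among the 11 that rose with DBcAMP, a count that shares the DBcAMP libraries with the comparison that chose those 11. The treatments were given at 1 dose each, 1 µM NE and 500 µM DBcAMP, and no dose was matched between them.

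In the operated glands the members that rose with DBcAMP stood lower than the members that fell. Relative to Control day, the 11 had a median log2 difference of -0.71 in DCN day, -1.14 in DCN night, -1.07 in SCGX day and -1.26 in SCGX night. The 54 that fell had -0.26, -0.42, -0.51 and -0.44 in the same order. The 33 not called had -0.46, -0.71, -0.71 and -0.66, so they too stood lower than the 54. All 11 were below Control day in each of the 4 operated groups, against 38, 43, 47 and 44 of the 54. In Sham day the medians were 0.00 and -0.04. The sets were formed from the culture libraries after their values were seen, so no test was made. The 11 had a higher median Control day level, 75.6 CPM against 41.9 CPM. Across all 98 members Pearson's r between the fold change with DBcAMP and the difference from Control day was -0.27 in DCN day, -0.28 in DCN night, -0.23 in SCGX day and -0.34 in SCGX night, and Spearman's rho was -0.24, -0.33, -0.25 and -0.32. With NE in place of DBcAMP, r was -0.19, -0.21, -0.11 and -0.26. Over all genes tested with a Control day CPM of at least 1, r with DBcAMP was -0.02 in DCN day and 0.11 in SCGX day. With NE it was -0.02 and 0.15 over all genes. These are weak relations over genes that share libraries and are given as a description. The part that this level difference played was not tested.

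**Figure D5:**
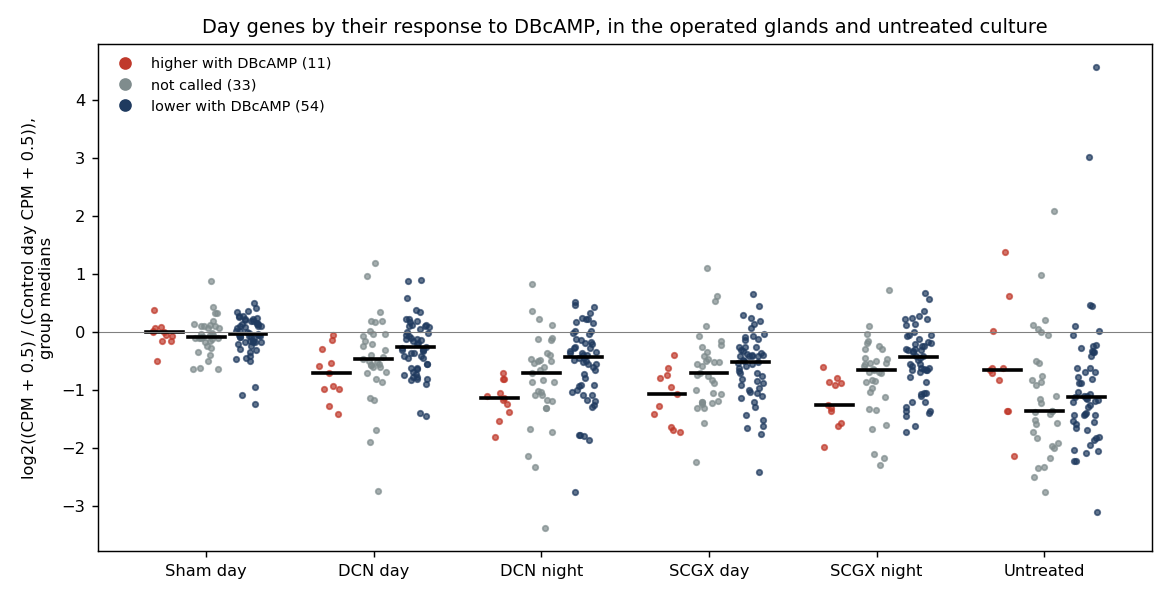
Log2 difference of the group median from the Control day median for 98 day genes, by their call with DBcAMP; each dot is a gene and black lines are medians. The 11 genes higher with DBcAMP lie below 0 in both DCN and both SCGX groups, while the 54 lower genes reach above 0 in each.

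In the pineal day library 83 of 104 members were above the mixed-tissue library, against 55.9% of the 13626 genes, with a median log2 ratio of CPM + 0.5 of 1.15, where the 13626 genes had 0.11. Relative to Control day, the member median was -1.82 in the pineal night library and -1.55 in mixed tissue, so at night the members' median lay below that of mixed tissue. At least 8-fold higher were 10 members, where 1.12% of the 13626 genes were. At least 8-fold lower were 4 members, where 3.25% were. The extremes were log2 ratios of 7.44 and -6.78. ENSRNOG00000008934 read 749.2 CPM in pineal day and 92.9 CPM in mixed tissue, and its 95% exact Poisson intervals were 739.2 to 759.2 and 89.9 to 96.0.

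The 4 members of 8-fold lower level had 53.0 to 440.5 CPM in mixed tissue and medians of 1.49 to 11.2 CPM in Control day glands. One of them read 4.19, 3.17 and 3.64 CPM in Control day and 0.687, 0.730 and 0.818 CPM in Control night libraries, but 0.626, 0.595 and 13.2 CPM in Sham night and 30.3, 3.79 and 3.94 CPM in DCN day libraries. Its high values fell in Sham night replicate 3 and DCN day replicate 1 (the SDs of these libraries over all genes are given above). The same gene had 121.8 CPM in mixed tissue. It is the member that was higher at night in the separate pineal libraries. Whether RNA of other tissues entered those libraries was not tested.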

How the data were processed

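The authors deposited, for each library, a table of read-pair counts per Ensembl gene and a table of RPKM. Stranded, ribosomal RNA-depleted libraries were aligned to the rat genome rn4 with STAR (2.3.1y in the submitters' processing notes, which also list CASAVA 1.8.2, HTSeq, R 3.0.2 and DESeq2 1.2.10), and pairs were counted against Ensembl release 69. RPKM values deposited by the authors are those counts over gene length and library total.

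From the counts, CPM used the file totals. Comparisons without Control or Sham libraries were fitted with edgeR 4.0.16 (TMM, glmQLFit and glmQLFTest, R 4.3.3) on genes whose normalized counts averaged 5 or more, with Benjamini-Hochberg adjustment over all genes tested and calls at an adjusted p under 0.05. DESeq2 1.42.0, other scalings, filters, thresholds and the omission of each library were alternatives. The SE printed with edgeR values is the absolute log2 fold change over the square root of the test's F statistic, not a separately estimated error. Fits were tested on simulated data. Summaries used Python 3.11.15. The 33 pairs of replicate libraries differed beyond counting noise (chi-square per degree of freedom of at least 5.78).

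The members, lists and comparisons were chosen with earlier results of these data known. Lists set by gene symbol, cell type markers and promoter motifs could not be applied, because no table pairing the identifiers with symbols was used here, and no sequence is shown. The rule for named genes rests on symbols, so at most 2 identifiers that fell and 2 that rose are printed, chosen after their values were seen. Other members are described without an identifier.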

Additional observations from a re-analysis of the deposited data

How the results depend on the processing

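The number of members was 352 with a threshold of -1 and 38 with -2, and ran from 88 to 116 without each Control or Sham library in turn. No planned setting changed the side of 0 on which the median lay with NE (-0.72 to -0.57) or DBcAMP (-0.65 to -0.44). At an adjusted p under 0.001 the members called were 38 with NE, 41 with DBcAMP, 4 for NE against DBcAMP, and 0 for SCGX night against day and for SCGX against DCN at day. DESeq2 called 6 members in DCN night against day, 13 in SCGX night against day, 17 for SCGX against DCN at day and 2 for the interaction. With all libraries of the experiment in 1 model the calls were 2, 2 and 1 for the first 3 of these. Without a filter on low counts they were 13 in SCGX night against day and 5 for SCGX against DCN at day, which was also 5 with library size alone and with a minimum of 10 read-pairs per library. Leaving out 1 library gave 2 to 8 members in SCGX night against day, 0 to 14 for SCGX against DCN at day, 56 to 60 with NE, 57 to 60 with DBcAMP and 12 to 15 for NE against DBcAMP. Replicate numbers did not pair libraries (21 correlations of deviations from -0.23 to 0.23, over 0.1 throughout in 0 comparisons). The replicate block gave 4 in SCGX night against day (0 higher), 4 for SCGX against DCN at day, 65 with NE, 62 with DBcAMP and 10 for NE against DBcAMP. For the 10 calls of the 4 identified genes, 136 of 140 alternative settings kept the call and 0 reversed it. The settings include the stricter cutoff of 0.001 on the main fit. Comparisons in which these genes were not called were not included, so a gained call could not show. The counts of members called under these settings stand without shares over all genes and show only how far the counts moved. The cause of these changes was not tested. Members with few read-pairs, such as the 27 under 10 CPM in Control day, are the least precise.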

Other observations

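Some day genes had levels in untreated culture that no in vivo group reached. One member read 11.5, 19.9 and 31.2 CPM in Control day libraries and 568.6, 431.2 and 481.9 CPM in untreated culture. With NE it read 170.1, 169.2 and 154.4 CPM and with DBcAMP 167.7, 185.7 and 224.9 CPM. Another read 4.52, 3.81 and 4.72 CPM in Control day and 59.1, 40.1 and 35.8 CPM in untreated culture. These were 2 of the 4 members whose untreated median was at least 2-fold above Control day, while 61 members were at least 2-fold below it. The median log2 difference of untreated culture from Control day was -1.17 over the 104 members. Over the 13626 genes of at least 1 CPM at Control day, the medians of the untreated libraries ran from -0.14 to -0.09. Control day levels helped choose the members, so lower levels elsewhere can in part reflect the choice. Culture and in vivo libraries are separate experiments with other animals, those of the cultures being older and all female. The difference between them was not tested.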
